A study of Danio rerio with 16 samples.

Results

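By selection, a group of 42 genes had higher mean levels in citrine-positive cells of the injured zebrafish heart than in each other group of the series. The 42 were selected on their measured levels from 31388 gene IDs. Levels are in TPM, a measure of transcript share that allows for gene length and sums to the same total in each library. A member had a mean of at least 20 TPM in citrine-positive libraries, a mean (plus 1) at least 4 times that of each other group (plus 1), and every citrine-positive library above every double-negative library. These thresholds were met by 46 IDs, of which 4 (col11a1b, krt4, TNC and THBS4) were among 21 IDs left out beforehand by name. The differences between citrine-positive cells and the other groups therefore chose the members, and they are described here without a test.

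The adult fish, 3 to 9 months old, all carried the transgenes postnb:citrine and kdrl:mCherry. The libraries were 3 of citrine-positive cells at 7 days after cryoinjury (7 dpi; pools 7, 9 and 10), 6 of 7 dpi cells without citrine or mCherry (double-negative; pools 5 to 10), 4 of mCherry-positive cells at 7 dpi (pools 5, 6, 7 and 9) and 3 of mCherry-positive cells from uninjured hearts (pools 2 to 4). Each library came from the ventricular apexes of 3 to 5 hearts, dissociated with trypsin and sorted by fluorescence, with 0.2 to 0.6 ng of RNA amplified. The citrine reporter marks cells in which the postnb promoter was active, the mCherry reporter cells with kdrl activity, and the double-negative sort is a mixture of whatever carries neither. No citrine-positive cells from uninjured hearts were analysed here, so the members' levels in such cells before injury are not described.

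Periostin is a secreted matrix protein that fibroblasts switch on when they are activated by injury. After cryoinjury the zebrafish heart forms a fibrotic scar that is later resolved while heart muscle regrows, and fibroblasts, many of them derived from the epicardium, supply much of its collagen and other matrix. Such cells also send signals to their neighbours, among them regulators of the Wnt pathway, and make enzymes that control retinoic acid.

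The reporter genes were checked first. The endothelial receptor gene kdrl had 0.74 to 1.73 TPM in citrine-positive libraries, against 24.0 to 57.0 TPM in double-negative, 159 to 266 TPM in 7 dpi mCherry-positive and 283 to 467 TPM in uninjured mCherry-positive libraries. The periostin gene POSTN (ENSDARG00000104267) had 715, 932 and 1532 TPM in citrine-positive pools 7, 9 and 10, and 202 to 426 TPM in double-negative libraries, so its transcript was not confined to the citrine gate. A second ID with that symbol (ENSDARG00000043806) was present in every sort, with 38.7, 196 and 382 TPM in citrine-positive pools 7, 9 and 10, against 15.0 to 251 TPM in double-negative, 55.3 to 407 TPM in 7 dpi mCherry-positive and 109 to 173 TPM in uninjured mCherry-positive libraries. Summed over the 17 IDs of a fibroblast marker list, which includes both POSTN IDs and the member LUM, citrine-positive libraries held 8093 to 17577 TPM and double-negative libraries 2698 to 7507 TPM. Macrophage markers summed to 68.8 to 80.6 TPM in citrine-positive against 3372 to 6636 TPM in double-negative libraries, and endothelial markers to 44.9 to 63.6 TPM against 264 to 828.5 TPM. Citrine-positive pool 7 stood apart by its cardiomyocyte markers, which summed to 8723 TPM there, against 681 and 810 TPM in pools 9 and 10. In the 5 libraries of pools 9 and 10, 2 IDs held 25.7% to 35.8% of all TPM, against at most 2.09% in the others. An epicardial list summed to 2378, 3609 and 2671 TPM in citrine-positive pools 7, 9 and 10 against 1184 to 2521 TPM in double-negative, 1993 to 4755 TPM in 7 dpi mCherry-positive and 2412 to 4442 TPM in uninjured mCherry-positive libraries. Markers of fibroblasts were thus abundant in all citrine-positive libraries, and the epicardial sum overlapped between citrine-positive and mCherry-positive libraries.

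Together the members made up a small part of the RNA. Their summed level was 1893, 4969 and 2055 TPM in citrine-positive pools 7, 9 and 10. It ran between 214.0 and 458 TPM in double-negative libraries (median 327), between 83.4 and 441 TPM in the 7 dpi mCherry-positive sort (median 106) and between 47.0 and 153 TPM in the uninjured one (median 127). Single members averaged from 20.6 to 463 TPM in citrine-positive libraries, with a median of 40.1 TPM. The next highest group was the double-negative sort for 34 members, mCherry-positive cells at 7 dpi for 3 and uninjured mCherry-positive cells for 5. Relative to that next group the median ratio was 5.94, and 11 members reached a ratio of at least 10. As these are pools of sorted cells, fewer cells with a transcript and less of it per cell cannot be told apart.

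**Figure D1:**
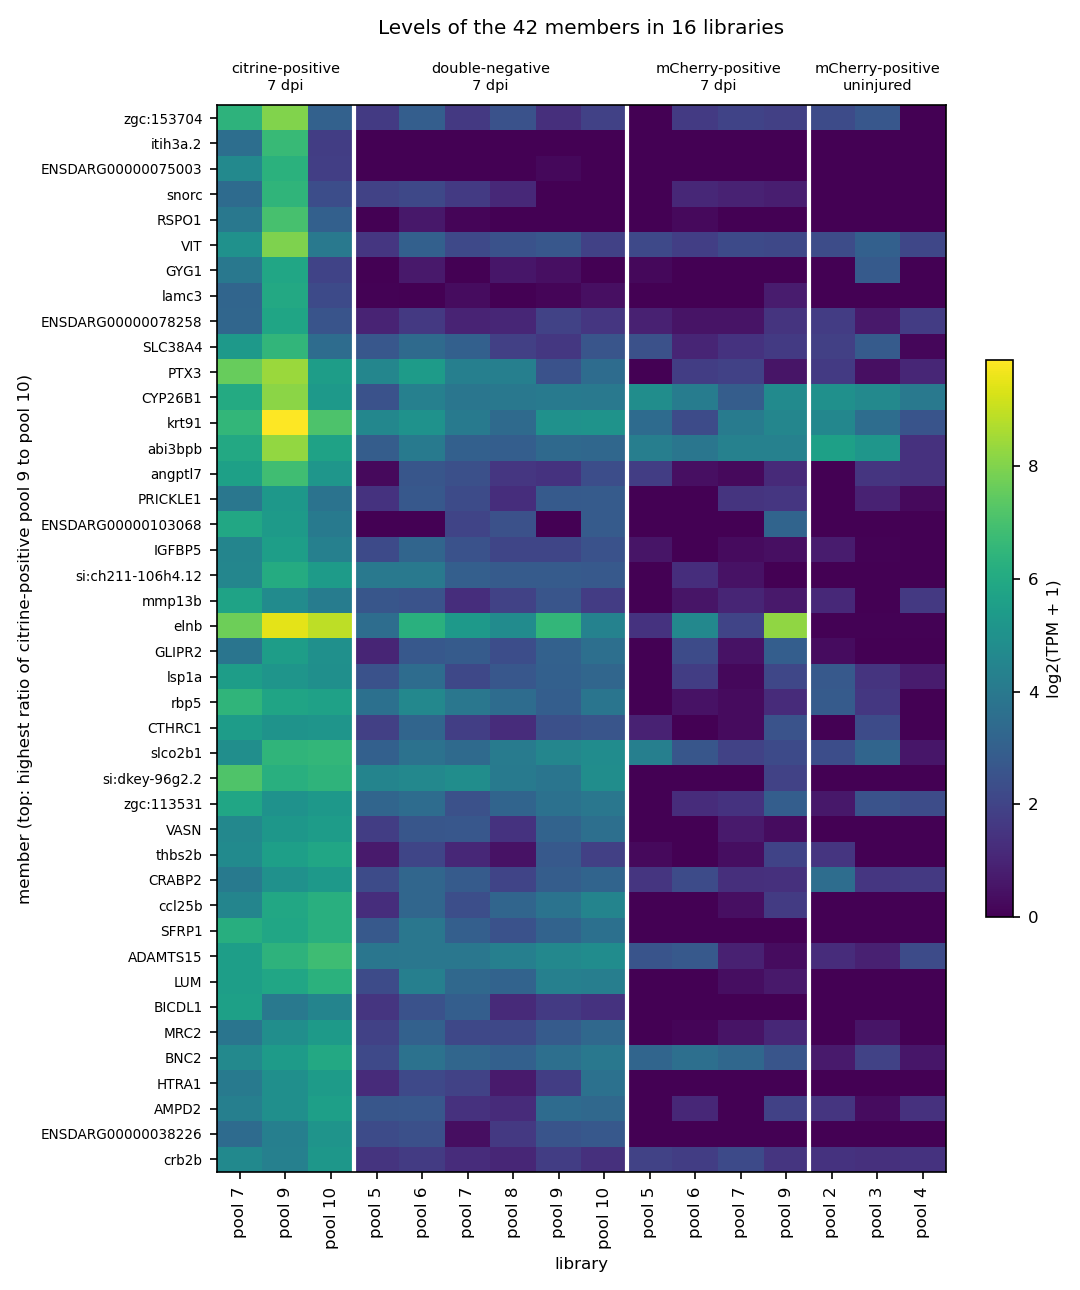
Level of each of the 42 members (rows) in each of the 16 libraries (columns), as log2(TPM + 1), with rows ordered by the ratio of citrine-positive pool 9 to pool 10. By the choice of members, the citrine-positive columns lie above the double-negative ones in every row. The upper 14 rows are brightest in pool 9, and the double-negative columns are brighter than the mCherry-positive ones for 17 members called in that comparison.

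The most abundant member was elnb, which encodes elastin, the core of elastic fibres. It had 207, 710 and 471 TPM in citrine-positive pools 7, 9 and 10, and 10.6 to 91.4 TPM in double-negative libraries (median 32.5). At 7 dpi the mCherry-positive libraries held 1.73, 23.2, 3.07 and 301 TPM in pools 5, 6, 7 and 9, and in uninjured ones 0.05, 0.04 and 0.03 TPM. The elastin transcript was therefore high in all citrine-positive libraries and in a single mCherry-positive library, pool 9, which lay above citrine-positive pool 7.

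Other matrix genes were of several kinds. LUM, the collagen-binding proteoglycan lumican, had 45.7, 57.0 and 77.5 TPM in citrine-positive pools 7, 9 and 10, against 3.78 to 18.5 TPM in double-negative libraries (median 13.4) and at most 0.58 TPM in any mCherry-positive library. The matricellular gene thbs2b, a thrombospondin 2, had 25.4, 46.2 and 57.0 TPM in citrine-positive pools, against 0.38 to 5.84 TPM in double-negative libraries (median 1.91). CTHRC1 (ENSDARG00000087198), a secreted protein with collagen repeats, varied least between citrine-positive libraries of these, with 43.0, 32.7 and 34.2 TPM, against 1.38 to 8.43 TPM in double-negative libraries. Of these, LUM and thbs2b were highest in pool 10 and CTHRC1 in pool 7. MRC2, a receptor that takes up collagen for degradation, had 13.2, 28.8 and 40.6 TPM in citrine-positive pools 7, 9 and 10 and 2.78 to 9.08 TPM in double-negative libraries.

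A further set of matrix genes was uneven within the citrine sort. The matrix glycoprotein gene abi3bpb had 61.5, 310 and 49.98 TPM in citrine-positive pools 7, 9 and 10, against 6.57 to 15.6 TPM in double-negative libraries, 13.7 to 19.2 TPM in 7 dpi mCherry-positive libraries and 1.64 to 48.2 TPM in uninjured ones. VIT, the matrix protein vitrin, had 30.9, 247 and 14.8 TPM in citrine-positive pools, against 1.96 to 7.26 TPM in double-negative libraries. The laminin chain gene lamc3, of basement membranes, had 8.20, 61.0 and 3.60 TPM in citrine-positive pools, against at most 0.34 TPM in double-negative libraries. In each of them pool 9 was highest. The same order held for snorc, a proteoglycan gene known from cartilage, with 9.83, 86.7 and 3.99 TPM in citrine-positive pools 7, 9 and 10, against 0 to 3.37 TPM in double-negative libraries. It also held for itih3a.2, a heavy chain of the inter-alpha-trypsin inhibitor family that binds hyaluronan, with 10.9, 99.4 and 2.50 TPM, which was listed at 0 in all 13 other libraries.

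Secreted proteases of several kinds were among the members. ADAMTS15 (ENSDARG00000029124), a metalloprotease that cleaves proteoglycans, had 45.8, 82.4 and 110 TPM in citrine-positive pools 7, 9 and 10, and 13.6 to 26.6 TPM in double-negative libraries (median 16.01). The collagenase gene mmp13b had 52.7, 26.1 and 16.8 TPM in citrine-positive pools, against 1.47 to 5.23 TPM in double-negative libraries (median 3.80). HTRA1 (ENSDARG00000032831), a secreted serine protease, had 15.2, 29.4 and 42.3 TPM in citrine-positive pools, against 0.62 to 11.7 TPM in double-negative libraries (median 2.62), and was listed at 0 in all 7 mCherry-positive libraries. Pool 7 was thus highest for the collagenase, and pool 10 for both other proteases.

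Regulators of the Wnt pathway with opposite roles were among the members. RSPO1, a secreted agonist that raises Wnt receptor levels, had 14.5, 128 and 7.08 TPM in citrine-positive pools 7, 9 and 10. It had 0.57 and 0.09 TPM in double-negative pools 6 and 7, 0.19 TPM in mCherry-positive pool 6 at 7 dpi, and was listed at 0 in the other 10 libraries. Its ratio to the next group (TPM + 1) was 45.9, and without pool 9 its citrine-positive mean was 10.8 TPM, too low for the rule. SFRP1 (ENSDARG00000035521), a secreted Wnt antagonist, had 72.4, 56.1 and 74.2 TPM in citrine-positive pools, against 4.68 to 14.2 TPM in double-negative libraries (median 7.40), and was listed at 0 in all 7 mCherry-positive libraries. The antagonist had close values in the citrine-positive libraries, where the agonist differed 16.02-fold (TPM + 1) between pools 9 and 10. PRICKLE1 (ENSDARG00000045694), of planar cell polarity signalling, had 14.1, 37.2 and 12.4 TPM in citrine-positive pools and 1.43 to 6.04 TPM in double-negative libraries.

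Several members handle retinoids, which signal in the epicardium and endocardium of the injured zebrafish heart. CYP26B1, the enzyme that degrades retinoic acid, had 64.3, 282 and 39.1 TPM in citrine-positive pools 7, 9 and 10, against 4.63 to 18.6 TPM in double-negative libraries (median 14.7). Its values in mCherry-positive cells overlapped those of double-negative cells, with 27.4, 16.5, 6.62 and 25.6 TPM at 7 dpi and 30.0, 24.0 and 14.7 TPM in uninjured hearts. The retinol-binding protein gene rbp5 had 87.4, 53.0 and 49.3 TPM in citrine-positive pools, against 6.78 to 23.2 TPM in double-negative libraries (median 12.3) and 0 to 1.35 TPM in 7 dpi mCherry-positive libraries. CRABP2 (ENSDARG00000030449), which carries retinoic acid to its receptors, had 15.8, 30.6 and 38.1 TPM in citrine-positive pools, against 3.12 to 8.67 TPM in double-negative libraries. The degrading enzyme thus had a broad level in the other sorts, whereas rbp5 was near 0 in most 7 dpi mCherry-positive libraries.

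Secreted signals and their binding proteins followed. PTX3 (ENSDARG00000068275), a pentraxin of innate immunity that also organises hyaluronan, had 189, 333 and 44.4 TPM in citrine-positive pools 7, 9 and 10, against 4.65 to 41.4 TPM in double-negative libraries (median 18.1). The lowest citrine-positive library lay just above the highest double-negative one. The chemokine gene ccl25b had 21.8, 59.8 and 74.9 TPM in citrine-positive pools and 1.44 to 21.1 TPM in double-negative libraries (median 8.49), where the same near contact occurred. IGFBP5 (ENSDARG00000025348), a binding protein of insulin-like growth factors, had 21.5, 45.3 and 18.9 TPM in citrine-positive pools and 3.15 to 8.37 TPM in double-negative libraries. The angiopoietin-like gene angptl7 had 48.4, 115 and 35.2 TPM in citrine-positive pools and 0.18 to 5.18 TPM in double-negative libraries, a wide gap. VASN (ENSDARG00000099266), vasorin, which binds TGF-beta, had 23.2, 35.9 and 42.8 TPM in citrine-positive pools and 1.69 to 11.3 TPM in double-negative libraries.

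Several members act inside the cell or at its surface. The keratin gene krt91 was the second most abundant member, with 92.8, 936 and 136 TPM in citrine-positive pools 7, 9 and 10, against 9.51 to 32.3 TPM in double-negative libraries (median 26.8). Keratins are typical of epithelia such as the epicardium. BNC2, the zinc finger protein basonuclin 2, had 24.3, 42.3 and 60.7 TPM in citrine-positive pools, against 3.55 to 14.6 TPM in double-negative libraries. The Crumbs polarity gene crb2b had 24.9, 18.6 and 35.97 TPM in citrine-positive pools, and low levels of 1.08 to 3.65 TPM in all 13 other libraries. Transport and metabolism were represented by slco2b1, an organic anion transporter gene (28.3, 86.6 and 92.2 TPM in citrine-positive pools 7, 9 and 10), and by SLC38A4, an amino acid transporter (38.3, 89.3 and 10.1 TPM). They also included GYG1 (ENSDARG00000059391), the primer of glycogen synthesis (14.4, 55.8 and 2.97 TPM), and AMPD2 (ENSDARG00000029952), an AMP deaminase (17.99, 29.3 and 47.0 TPM). Among these 4, the amino acid transporter and the glycogen gene were lowest in pool 10, and both others were highest there. The highest double-negative library had 26.7 TPM for slco2b1 and 9.55 TPM for SLC38A4, just below the lowest citrine-positive one. It had 9.86 TPM for AMPD2 and 0.61 TPM for GYG1. Uninjured mCherry-positive pool 3 had 5.86 TPM of GYG1, above citrine-positive pool 10.

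The remaining named members were lsp1a, an actin-binding protein gene, with 44.0, 34.2 and 29.2 TPM in citrine-positive pools 7, 9 and 10, BICDL1, an adaptor of dynein transport, with 47.7, 14.9 and 21.1 TPM, and GLIPR2, with 13.4, 44.5 and 29.8 TPM. Genes with a provisional name were zgc:153704 (82.9, 258 and 7.40 TPM), si:dkey-96g2.2 (143, 74.8 and 85.6 TPM), si:ch211-106h4.12 (21.9, 66.6 and 42.3 TPM) and zgc:113531 (55.9, 31.5 and 37.2 TPM). For zgc:153704, citrine-positive pool 10 lay just above double-negative pool 6 (6.72 TPM) and uninjured mCherry-positive pool 3 (5.34 TPM). No symbol was found for 4 IDs, of which ENSDARG00000075003 had 23.8, 78.0 and 2.54 TPM in citrine-positive pools, 0.16 TPM in double-negative pool 9 and was listed at 0 in the other 12 libraries. In all, 15 members were listed at 0 in every uninjured library, 6 in every 7 dpi mCherry-positive library and 1 in every double-negative library.

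At the edges of the rule, the members with the lowest means were ENSDARG00000038226 (20.6 TPM), PRICKLE1 (21.2 TPM) and ENSDARG00000078258 (22.8 TPM). The IDs that missed it on the mean alone began with ENSDARG00000104330 (19.4 TPM), FAM177A1 (19.0 TPM) and RHPN2 (18.6 TPM), and there were 60 of them. Ratios just inside belonged to zgc:113531 (4.08), BNC2 (4.11) and CRABP2 (4.14), and just outside to the keratin gene krt15 (3.94), EPHB3 (3.90) and ENSDARG00000088739 (3.87), with 191 IDs missing on the ratio alone. The library order alone kept out 21 IDs, among them ENSDARG00000102708, si:ch211-255f4.8 and wu:fj16a03, all with most of their level in citrine-positive pool 7.

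Pool numbers let the sorts be set side by side, though the labels do not say that equal numbers share hearts. Libraries with an equal number are called libraries of 1 pool here. Between citrine-positive and double-negative libraries of 1 pool, the median log2 ratio of the members (TPM + 1) was 2.61 in pool 7, 2.79 in pool 9 and 2.00 in pool 10, and the lowest single values were 1.02, 1.36 and 0.87. All 42 members were above 0 in all 3 pools, and 32, 35 and 21 of them were at least 4-fold higher in pools 7, 9 and 10. Between citrine-positive and mCherry-positive libraries the median was 4.02 in pool 7 and 4.31 in pool 9, with 40 and 41 members at least 4-fold higher. The order of libraries was part of the rule, so these values describe the size of the difference within pools and support nothing beyond it.

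The members split in how they varied between the 3 citrine-positive libraries. For 14 of them pool 9 was at least 4-fold above pool 10 (TPM + 1), with ratios from 6.10 to 30.9. These were abi3bpb, krt91, CYP26B1, PTX3, SLC38A4, ENSDARG00000078258, lamc3, GYG1, VIT, RSPO1, snorc, ENSDARG00000075003, itih3a.2 and zgc:153704. All 14 were highest in pool 9, and 13 were lowest in pool 10. The other 28 had ratios between 0.53 and 3.21, and no member was 4-fold higher in pool 10 than in pool 9. Among the 2629 IDs with a citrine-positive mean of at least 20 TPM, 1.86% showed such an excess of pool 9 over pool 10. The grouping was made after the values were seen, and the rule favours genes that are very high in a single library, so it is a description of these libraries.

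The sums show how far a single library carried the 14 genes. They summed to 650.0, 3021 and 330 TPM in citrine-positive pools 7, 9 and 10, and to 63.6 to 137 TPM in double-negative libraries. The other 28 summed to 1243, 1947 and 1725 TPM in citrine-positive pools, and to 145 to 321 TPM in double-negative libraries. Double-negative pool 9 held 72.6 TPM for the 14. The rule keeps every double-negative library below the lowest citrine-positive one, so a rise to the level of citrine-positive pool 9 could not appear there. The keratin gene krt4, left out by name, had the same order, with 402, 1425 and 264 TPM in citrine-positive pools 7, 9 and 10, as had THBS4 (ENSDARG00000102777), with 20.2, 150 and 14.4 TPM. The epicardial list holds krt4, and without that gene its sum was 1976, 2184 and 2406 TPM in citrine-positive pools 7, 9 and 10, with the highest value in pool 10. The fibroblast sum was also highest in pool 10 (8093, 12722 and 17577 TPM in pools 7, 9 and 10). Their part in the split was not tested. Without citrine-positive pool 9 the rule gave 38 IDs, of which 27 were among the 42, and 9 of the 14 no longer met it.

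**Figure D2:**
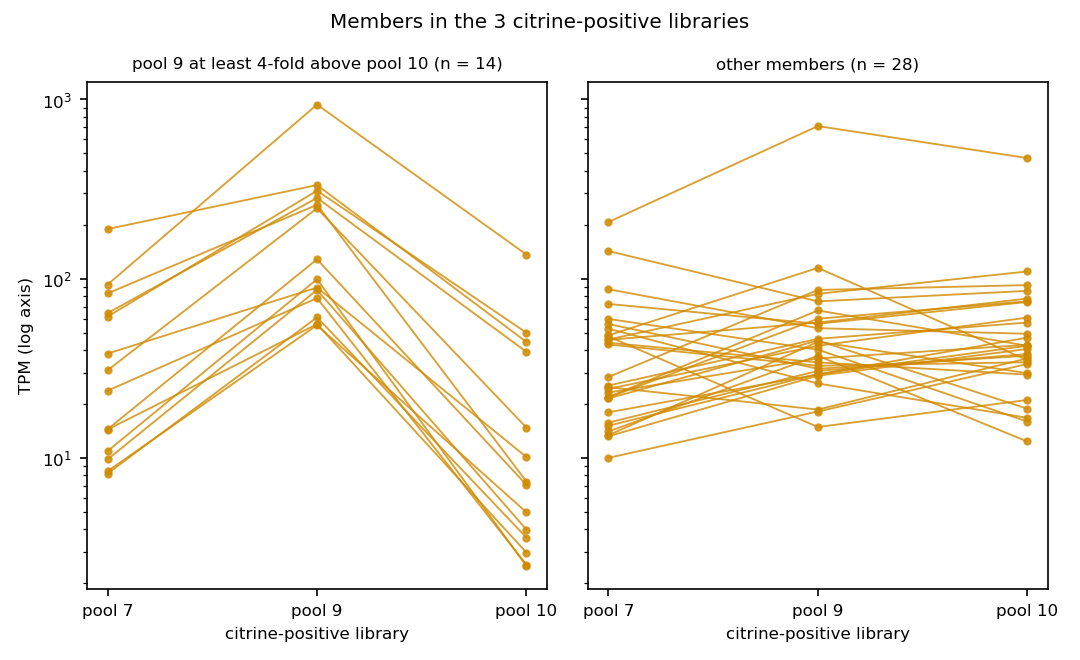
Level in TPM (log axis) of each member in the 3 citrine-positive libraries, joined by a line per gene, for the 14 members with pool 9 at least 4-fold above pool 10 (left) and the other 28 (right). The left lines peak in pool 9, which lies above pool 10 by the choice of the 14, and the right lines stay within a narrower range.

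The first tested comparison asked whether members were present at different levels in double-negative and mCherry-positive cells at 7 dpi, groups for which the rule set a ceiling and not a difference. Of the 42 members, 17 were higher in double-negative cells and none lower (limma on log2(TPM + 1), Benjamini-Hochberg adjusted p under 0.05 over all 19039 tested IDs). The background was 6.88% of all tested IDs higher and 4.06% lower. At an unadjusted p under 0.05 there were 22 members, all of them higher, and 4489 of the 19039 tested IDs in either direction. The median log2 difference was 1.17 over the members and 0.10 over all tested IDs. All 42 passed the filter on low values through the citrine-positive libraries, and 37 had at least 1 TPM in at least 3 of the other 13 libraries.

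Of the called members with any level in mCherry-positive cells, si:dkey-96g2.2 had the largest difference. It had 13.2 to 28.0 TPM in double-negative libraries (median 22.4), against 0, 0, 0 and 2.88 TPM in mCherry-positive pools 5, 6, 7 and 9, a log2 difference of 3.96 ± 0.42 (SE, limma adjusted p = 1.03e-05). With 3 of the 4 mCherry-positive libraries at 0 the size rests on the pseudocount, and was 6.48 with 0.1 and 2.21 with 5. Every double-negative library lay above every mCherry-positive one. LUM, with 3.78 to 18.5 TPM in double-negative libraries against 0, 0, 0.30 and 0.58 TPM in mCherry-positive pools, differed by 3.33 ± 0.43 (limma adjusted p = 7.05e-05). For rbp5, double-negative libraries had 6.78 to 23.2 TPM, against 0, 0.40, 0.22 and 1.35 TPM in mCherry-positive pools 5, 6, 7 and 9, a difference of 3.23 ± 0.48 (limma adjusted p = 2.81e-04). Neither gene's groups overlapped.

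Signals and proteases were among the 17 too. PTX3 averaged 19.1 ± 12.6 TPM in double-negative libraries (SD, n = 6) and 1.44 ± 1.41 TPM in mCherry-positive ones (n = 4), a log2 difference of 3.00 ± 0.60 (limma adjusted p = 0.00280). IGFBP5 averaged 4.58 ± 1.97 TPM in double-negative and 0.26 ± 0.20 TPM in mCherry-positive libraries (2.11 ± 0.41, limma adjusted p = 0.00207). ADAMTS15 averaged 18.3 ± 5.54 TPM in double-negative and 2.98 ± 2.82 TPM in mCherry-positive libraries (2.57 ± 0.48, limma adjusted p = 0.00151). In each of them all double-negative libraries were above all mCherry-positive ones. The list went on with VASN (ENSDARG00000099266, 2.29), MRC2 (2.13), si:ch211-106h4.12 (2.78), ccl25b (2.54), zgc:113531 (1.90), lsp1a (1.82) and mmp13b (1.57). The other VASN ID (ENSDARG00000102565), not a member, had the opposite order. It had 1.04 to 4.87 TPM in double-negative against 6.09 to 12.6 TPM in 7 dpi mCherry-positive libraries. SFRP1, HTRA1, BICDL1 and ENSDARG00000038226 also passed and are given no fold, since all 4 mCherry-positive libraries were listed at 0. Their double-negative means were 8.49, 3.73, 3.05 and 3.50 TPM.

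Groups did not overlap, with double-negative cells higher, for 15 members, all of them among the 17, against a background of 6.45% of tested IDs. No member had every double-negative library below every mCherry-positive one (background 3.77%). Of the 14 members at least 4-fold higher in citrine-positive pool 9 than in pool 10, PTX3 alone passed. The rule keeps their double-negative libraries below the lowest citrine-positive one, which was pool 10 for 13 of them. The median of double-negative means was 2.50 TPM over the 14 and 5.77 TPM over the other 28. The small number of calls among the 14 is thus partly set by the choice of members. Among the 14 were the 5 members that reached 1 TPM in fewer than 3 of the 13 other libraries, which had little level to compare. Values of others among the 14 were close in both sorts, such as VIT with 4.27 ± 1.93 TPM in double-negative and 3.28 ± 0.47 TPM in mCherry-positive libraries, or CYP26B1 with 13.6 ± 4.70 TPM in double-negative and 19.0 ± 9.54 TPM in mCherry-positive libraries. Fibroblast markers moved with this comparison, summing to 2698 to 7507 TPM in double-negative against 982 to 2996 TPM in 7 dpi mCherry-positive libraries, as did POSTN (ENSDARG00000104267), with 202 to 426 TPM in double-negative against 0.28 to 36.3 TPM in mCherry-positive libraries. The second POSTN ID (ENSDARG00000043806) overlapped, with 15.0 to 251 TPM in double-negative against 55.3 to 407 TPM in mCherry-positive libraries. Blood cell markers moved as well. Macrophage markers summed to 3372 to 6636 TPM in double-negative against 425 to 2246 TPM in mCherry-positive libraries, and erythroid markers to 6395 to 113201 TPM in double-negative against 14.6 to 655 TPM in mCherry-positive ones. Neutrophil markers, a list that includes the called member mmp13b, summed to 182 to 1211 TPM in double-negative against 34.4 to 183 TPM in mCherry-positive libraries. Endothelial markers went the other way, with 264 to 828.5 TPM in double-negative against 1706 to 3167 TPM in mCherry-positive libraries, as did cardiomyocyte markers, with 1830 to 4038 TPM in double-negative against 4212 to 8549 TPM in mCherry-positive ones. The part of these markers in the result was not tested. The calls of lsp1a (lowest 1.48, adjusted p = 0.0886, without mCherry-positive pool 5, and 1.55, 0.0798, without pool 7), zgc:113531 (1.43, 0.0883, without pool 5, and 1.84, 0.0561, without pool 6) and mmp13b (1.38 to 1.60, limma adjusted p = 0.0561 to 0.101, without each of 6 libraries in turn) were lost when 1 library was left out. The other 14 kept their calls. When the most abundant IDs were removed and the TPM rescaled, the differences of LUM, si:ch211-106h4.12 and si:dkey-96g2.2 became 3.94, 3.40 and 4.61. The pseudocount moved the sizes further. For the 13 called members with any level in mCherry-positive cells, the log2 differences of 1.57 to 3.96 were 2.89 to 6.48 with a pseudocount of 0.1 and 0.62 to 2.21 with 5, and for LUM they were 5.59 and 1.66.

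**Figure D3:**
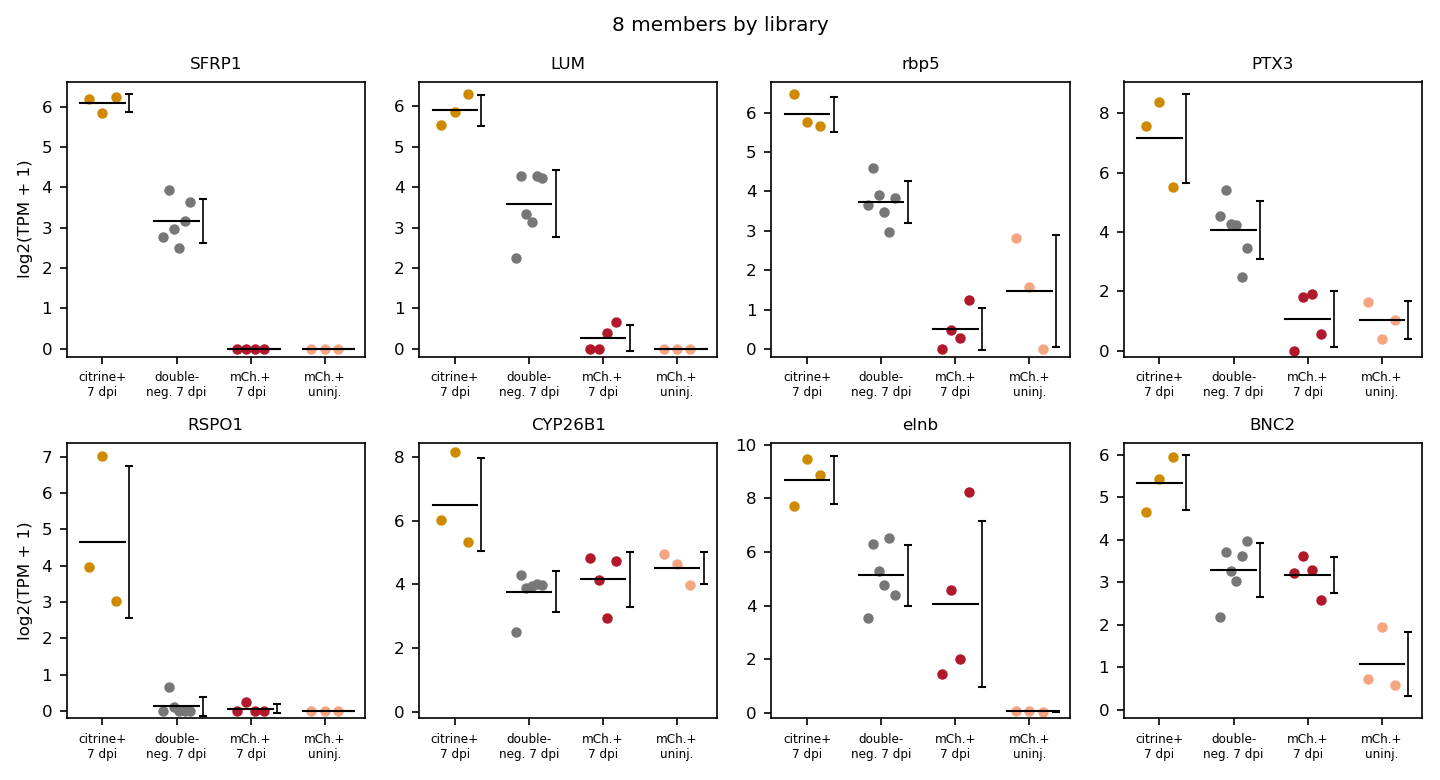
Levels of 8 members as log2(TPM + 1) in each library of the citrine-positive (n = 3), double-negative (n = 6), mCherry-positive 7 dpi (n = 4, mCh.+) and uninjured mCherry-positive (n = 3) groups, with a line at the mean and a bar of 1 SD beside it. SFRP1, LUM, rbp5 and PTX3 step down from double-negative to mCherry-positive cells at 7 dpi, CYP26B1 and BNC2 overlap between these groups, RSPO1 is near 0 outside the citrine sort, and elnb spreads widely in mCherry-positive cells at 7 dpi.

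The second tested comparison asked whether members differed between mCherry-positive cells at 7 dpi and those of uninjured hearts. None of the 42 was called higher or lower by limma, against a background of 0.42% of tested IDs higher and 0.273% lower. An unadjusted p under 0.05 was found for 2 members, and for a larger share of all tested IDs, 2189 of 19039. Not all members had a level to compare: 6 were listed at 0 in all 7 mCherry-positive libraries, so their difference is 0 by construction, and 20 reached 1 TPM in at least 3 of the 7. The median log2 difference was 0.04 over all 42 members, those at 0 included, and -0.06 over all tested IDs. No pool number was given to both injured and uninjured hearts, so injury and pool number cannot be told apart. This comparison shares the 7 dpi mCherry-positive libraries with the one before.

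Both members with a low unadjusted p had higher values at 7 dpi. BNC2 had 8.25, 11.3, 8.76 and 5.04 TPM in mCherry-positive pools 5, 6, 7 and 9 at 7 dpi, against 0.64, 2.87 and 0.50 TPM in uninjured pools 2, 3 and 4, a log2 difference of 2.09 ± 0.50 (limma adjusted p = 0.0642). The groups did not overlap. For elnb, the 1.73, 23.2, 3.07 and 301 TPM at 7 dpi stood against 0.03 to 0.05 TPM in uninjured libraries, a log2 difference of 4.02 ± 1.10 (limma adjusted p = 0.119), also without overlap. BNC2 crossed the threshold without 7 dpi pool 9 (2.29, limma adjusted p = 0.0410) or without uninjured pool 3 (2.53, 0.0308), and elnb without 7 dpi pool 5 (4.90, 0.0439). In all, 3 members had every 7 dpi library above every uninjured one (background 2.89%), the other being crb2b with 2.70 ± 0.75 TPM at 7 dpi and 1.68 ± 0.10 TPM in uninjured libraries, and none had every one below (background 4.03%).

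The third comparison covers the other genes of the pathways to which members belong, between citrine-positive and double-negative cells at 7 dpi. Of 12 pathway lists, 8 held a total of 16 members, and the lists of collagens, collagen processing, TGF-beta and BMP signalling and mesenchymal transcription factors held none. Leaving out the 46 IDs that met the thresholds, 420 IDs of the lists were tested, of which 60 were higher and 18 lower in citrine-positive cells (limma, adjusted p under 0.05). The background over all tested IDs was 1.78% higher and 8.08% lower. The lists were chosen with earlier results of these data known, and differences between the same groups had also chosen the members. The counts therefore describe the lists and are no independent support for the members. Other IDs left out by name stayed in where a list held them. The median log2 difference was 0.66 over these 420 and -0.23 over all tested IDs. Other scalings of the TPM moved the median of all tested IDs to -0.03 and -0.04. With them 134 (median of ratios) and 104 (rescaled) list IDs were higher and 19 and 20 lower. The share of list calls that were higher was thus 87.6% and 83.9% in place of 76.9%. Over all tested IDs that share rose too, to 36.4% and 31% in place of 18%. The count of higher IDs fell to 17 without citrine-positive pool 9, 18 without citrine-positive pool 10 and 37 without double-negative pool 8. When these groups were fitted alone, 437 of all tested IDs were higher without the pool number as a block and 205 with it, in place of 338. The pool block named below is that fit of these groups alone, and without the block it kept all 21 named calls it covered. After rescaling, the log2 differences named in the next paragraphs moved to 4.16 for COL2A1, 3.12 for SPON2, 3.73 for acanb, 3.78 for SFRP2, 2.81 for PRRX1, 2.10 for FST and -4.70 for BMP10.

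Matrix lists had calls in the higher direction and none in the lower (background 1.78% higher and 8.08% lower). Collagens had 13 of 23 tested IDs higher, elastic fibre genes 3 of 12, collagen processing genes 4 of 31, proteoglycans and hyaluronan genes 4 of 30, matricellular genes 3 of 40 and basement membrane genes 1 of 18. COL2A1 (ENSDARG00000011407), a fibrillar collagen known from cartilage, averaged 17.1 ± 9.35 TPM across the 3 citrine-positive libraries and 0.66 ± 0.45 TPM across the 6 double-negative ones, a log2 difference of 3.34 ± 0.41 (limma adjusted p = 1.90e-05). Another ID with the symbol COL2A1 was listed at 0 in all citrine-positive libraries. SPON2, a secreted spondin, averaged 4.17 ± 1.69 TPM in citrine-positive and 0.11 ± 0.14 TPM in double-negative libraries (2.17 ± 0.34, limma adjusted p = 2.37e-04). It reached 1 TPM in citrine-positive libraries alone, so it passed the filter on low values only through the group where it is high. It left the test when a citrine-positive library was left out. The procollagen protease gene adamts2a averaged 56.5 ± 14.5 TPM in citrine-positive and 17.3 ± 7.60 TPM in double-negative libraries (1.74 ± 0.41, limma adjusted p = 0.00810), though its call was lost without citrine-positive pool 10 (1.54, 0.0625).

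The elastin partner gene fbln5 and the cartilage proteoglycan gene acanb peaked in pool 9, as many members did. The first had 7.00, 21.7 and 5.8 TPM in citrine-positive pools 7, 9 and 10 and averaged 1.74 ± 1.18 TPM in double-negative libraries (2.09 ± 0.51, limma adjusted p = 0.0115). Its call was lost without citrine-positive pool 9 (1.54, adjusted p = 0.104) and with the pool block (2.24, limma adjusted p = 0.0753). The second had 8.83, 39.7 and 0.58 TPM in citrine-positive pools and averaged 0.16 ± 0.11 TPM in double-negative libraries (2.90 ± 0.64, limma adjusted p = 0.00529), and 4.12 without citrine-positive pool 10. Without citrine-positive pool 7 or 9, or with these groups fitted alone, acanb fell below the filter. Its call was therefore not tested without the library where it is highest, nor with the pool block. In the basement membrane list lama4, a laminin chain gene, averaged 74.0 ± 25.03 TPM in citrine-positive and 31.2 ± 8.40 TPM in double-negative libraries (1.21 ± 0.33, limma adjusted p = 0.0226). That call was lost without each of 4 libraries in turn, citrine-positive pools 9 (1.28, limma adjusted p = 0.0628) and 10 (0.95, 0.166) and double-negative pools 7 (1.11, 0.0532) and 8 (1.14, 0.0505). Uninjured mCherry-positive libraries had 43.3 to 66.4 TPM of lama4, which overlaps the 54.8 to 102 TPM of citrine-positive ones.

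**Figure D4:**
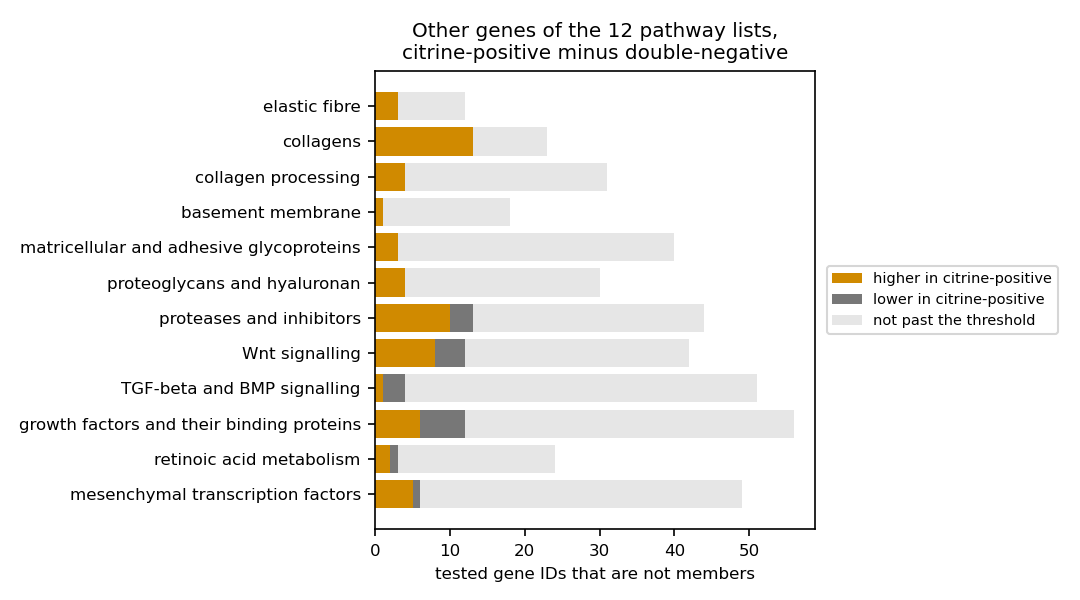
For each of 12 pathway lists, the number of tested gene IDs that are not members and were higher, lower or not past the threshold in citrine-positive against double-negative cells (limma, adjusted p under 0.05). The 6 matrix lists at the top have calls in the higher direction alone (13 of 23 collagens), and growth factors have 6 in each direction. Over all tested IDs 1.78% were higher and 8.08% lower.

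Proteases and inhibitors had 10 of 44 IDs higher and 3 lower (background 1.78% higher and 8.08% lower). MMP15, a membrane-bound metalloprotease, averaged 29.8 ± 5.12 TPM in citrine-positive and 5.46 ± 2.11 TPM in double-negative libraries (2.29 ± 0.37, limma adjusted p = 3.58e-04). MMP15 was among the 21 IDs left out of the members by name, but it missed the ratio of the rule as well. It averaged 8.93 ± 3.28 TPM in 7 dpi and 17.8 ± 4.81 TPM in uninjured mCherry-positive libraries. The paralog of a member went the other way: mmp13a averaged 3.25 ± 5.57 TPM in citrine-positive and 135 ± 136 TPM in double-negative libraries (-5.29 ± 0.83, limma adjusted p = 2.38e-04), and -6.41 without citrine-positive pool 7, -4.70 without pool 9 and -4.26 with the pool block. In citrine-positive pools 7, 9 and 10 mmp13a had 9.68, 0 and 0.06 TPM. The base name mmp13 is also on the neutrophil marker list, of whose IDs other than mmp13 4 of 5 tested were lower in citrine-positive cells.

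Wnt genes had 8 of 42 IDs higher and 4 lower (background 1.78% higher and 8.08% lower). SFRP2, an antagonist like SFRP1, had 5.07, 6.29 and 6.30 TPM in citrine-positive pools 7, 9 and 10 and at most 0.12 TPM in double-negative libraries (2.74 ± 0.29, limma adjusted p = 3.10e-06), and was listed at 0 in all mCherry-positive libraries. Like SPON2, it passed the filter on low values only through the citrine-positive libraries, where it is high. It left the test when a citrine-positive library was left out. TCF7, a transcription factor of the pathway that T cells express, was listed at 0 in all citrine-positive libraries and averaged 2.48 ± 1.05 TPM in double-negative ones (limma adjusted p = 0.00235, and 0.0996 with the pool block). Retinoic acid genes had 2 of 24 higher and 1 lower. CRABP1, a second carrier of retinoic acid, averaged 3.63 ± 0.83 TPM in citrine-positive and 0.81 ± 0.48 TPM in double-negative libraries (1.39 ± 0.35, limma adjusted p = 0.0129). Its call was lost without citrine-positive pool 7 (1.29, limma adjusted p = 0.0503) or 10 (1.33, 0.0574) and with the pool block (1.34, 0.127). The retinoid X receptor gene rxrga was lower, with 0.55 ± 0.54 TPM in citrine-positive and 26.8 ± 10.4 TPM in double-negative libraries (-4.13 ± 0.53, limma adjusted p = 3.09e-05).

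Growth factors and their binding proteins had 6 of 56 IDs in each direction, though the background was uneven. Over all tested IDs it was 1.78% higher and 8.08% lower. ANGPT1, the ligand of the endothelial receptor Tie2, averaged 17.5 ± 10.4 TPM in citrine-positive and 3.23 ± 1.21 TPM in double-negative libraries (2.04 ± 0.44, limma adjusted p = 0.00476). The call was lost without citrine-positive pool 9 (1.62, limma adjusted p = 0.0532) and with the pool block (1.97, 0.0707). The binding protein gene igfbp6b averaged 2.96 ± 1.74 TPM in citrine-positive and 44.2 ± 17.6 TPM in double-negative libraries (-3.48 ± 0.42, limma adjusted p = 1.32e-05), and 191 ± 49.5 TPM in 7 dpi mCherry-positive cells. In TGF-beta and BMP signalling 1 of 51 IDs was higher and 3 lower. FST, the activin antagonist follistatin, averaged 2.20 ± 1.15 TPM in citrine-positive and 0.20 ± 0.24 TPM in double-negative libraries (1.38 ± 0.41, limma adjusted p = 0.0384), a call lost without each of 7 libraries in turn and with the pool block (1.49, 0.0950). BMP10, a ligand of the endocardium and heart muscle, averaged 0.05 ± 0.08 TPM in citrine-positive and 15.5 ± 4.90 TPM in double-negative libraries (-3.92 ± 0.35, limma adjusted p = 5.62e-07). Both igfbp6b and BMP10 were highest in mCherry-positive cells.

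Mesenchymal transcription factors had 5 of 49 IDs higher and 1 lower. PRRX1, a factor of mesenchymal and connective tissue cells, had 6.40, 2.72 and 11.2 TPM in citrine-positive pools 7, 9 and 10 and averaged 0.76 ± 0.73 TPM in double-negative libraries (2.09 ± 0.43, limma adjusted p = 0.00299). It was listed at 0 in all mCherry-positive libraries. FOXC1 averaged 2.92 ± 1.52 TPM in citrine-positive and 18.4 ± 9.65 TPM in double-negative libraries (-2.24 ± 0.40, limma adjusted p = 9.07e-04), and 95.5 ± 20.8 TPM in mCherry-positive cells at 7 dpi. Some marker lists of other cells moved with this comparison. In citrine-positive cells 12 of 15 endothelial, 22 of 26 macrophage, 9 of 12 erythroid, 5 of 7 thrombocyte and 1 of 6 lymphocyte IDs were lower. Among all tested IDs 8.08% were lower. Cardiomyocyte and mural lists were near that share, with 1 of 16 and 1 of 12 IDs lower and median log2 differences of -0.06 and 0.83. By contrast 7 of 14 fibroblast and 1 of 9 epicardial IDs were higher (background 1.78%), and none of 8 neural or 10 cell cycle IDs passed. The fibroblast list includes both POSTN IDs, and cells were sorted by a reporter of the postnb promoter, so that list is not independent of the sort. How far the makeup of the double-negative sort bears on the list genes was not tested.

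No paralog of a member met the rule itself. By symbol, 18 members had 20 paralog IDs. Of 16 that could be tested, 3 were higher, 2 lower and 11 not called in citrine-positive against double-negative cells. The higher ones were the other IDs of ADAMTS15 (ENSDARG00000033544; 13.7 ± 2.82 TPM in citrine-positive and 2.09 ± 1.12 TPM in double-negative libraries, 2.30 ± 0.40, limma adjusted p = 6.97e-04), SFRP1 (ENSDARG00000057678) and PRICKLE1 (ENSDARG00000040649). SFRP1 (ENSDARG00000057678) had 1.55, 5.83 and 13.8 TPM in citrine-positive pools 7, 9 and 10 against 0.46 to 1.85 TPM in double-negative libraries (1.66 ± 0.47, limma adjusted p = 0.0273). It stood at 1.05 (adjusted p = 0.223) without citrine-positive pool 10, 2.32 without pool 7 and 1.61 (0.0950) without pool 9, and its call was also lost without double-negative pool 5, 8 or 9 and with the pool block (1.56, limma adjusted p = 0.154). PRICKLE1 (ENSDARG00000040649) averaged 3.39 ± 0.98 TPM in citrine-positive and 0.83 ± 0.30 TPM in double-negative libraries (1.26 ± 0.33, limma adjusted p = 0.0185), and lost its call without citrine-positive pool 7 (1.08, 0.0803) or 9 (1.32, 0.0506) and with the pool block (1.17, 0.181).

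The lower paralogs were mmp13a and glipr2, which averaged 0.22 ± 0.19 TPM in citrine-positive and 5.50 ± 3.41 TPM in double-negative libraries (-2.27 ± 0.53, limma adjusted p = 0.00782), against 29.2 ± 15.5 TPM for the member GLIPR2 in citrine-positive libraries. By mean level in citrine-positive libraries 2 paralogs were more abundant than the member, and both were present in every sort. The other HTRA1 ID (ENSDARG00000014907) averaged 63.6 ± 10.9 TPM in citrine-positive and 40.3 ± 12.07 TPM in double-negative libraries, and lsp1b averaged 58.7 ± 32.2 TPM in citrine-positive and 64.4 ± 27.1 TPM in double-negative libraries. The other CTHRC1 ID (ENSDARG00000001971) had 3.15, 26.45 and 16.84 TPM in citrine-positive pools 7, 9 and 10. That range overlaps the 2.61 to 6.74 TPM of double-negative libraries. RSEM divides reads shared by similar transcripts by estimate, so values of close paralogs are uncertain, although no member had a row identical to that of another ID.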

How the data were processed

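RNA of sorted cells was sequenced in 16 libraries from 3 to 5 pooled hearts each, as single reads of 60 bases, per the labels' protocols. The authors deposited 1 table of TPM per gene ID and library, summing to 1000000 per library. The submitters' processing notes name RSEM 1.2.25, CASAVA 1.8.2 and cutadapt as tools and Zv9 as the build, and the annotation release is not given in the sources used here. TPM keep no read counts, so depth is unknown and no counting interval is given. Being shares, TPM of all other genes drop where a transcript is very abundant. Low input and amplification add spread.

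Column names gave the sample of each of the 16 columns, and symbols were found for 25925 of 31388 IDs. The members and the 12 pathway and 12 marker lists were chosen with earlier results of these data known. The planned design allowed for counts or normalized values, and the test for normalized values was used. This was limma 3.58.1 (R 4.3.3) on log2(TPM + 1) with a mean-variance trend and 1 mean per group over all 16 libraries. It covered the 19039 IDs that reached 1 TPM in 3 or more libraries, and calls were made at a Benjamini-Hochberg adjusted p under 0.05 over all of them. Fold changes on this scale understate those of low genes. The fit was checked on simulated data. List names matched symbols in any case, with or without a paralog letter, giving 718 IDs for 534 of 590 names. Summaries used pandas 2.3.3 and numpy 2.4.6 in Python 3.11.15, and figures matplotlib 3.10.9.

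Named genes were the reporters, members by level, ratio, list or call, the IDs at each threshold, and called list genes. For the last, the 3 per direction and list that were planned were shortened to the first by adjusted p after values were seen, and called paralogs were added. The excess of pool 9 over pool 10, its alternatives and the outlier check were chosen after seeing the data.

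Each library is a separate sort, and the labels number the pools without saying that equal numbers share hearts. For citrine-positive and double-negative libraries, deviations from the group means correlated at 0.16, 0.23 and 0.19 in pools 7, 9 and 10. All were over 0.1, so these were taken as pairs in an added fit. The main fit has no term for the pool number, so calls are unpaired unless the block is named. The highest correlation with another pool was 0.17, 0.17 and 0.16, so pool 7 did not correlate best with its own number, and the fit with the pool number as a block is given where it changes a call. Alternatives covered the pseudocount, the filter, 2 scalings, the libraries entering the fit and the block.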

Additional observations from a re-analysis of the deposited data

Results flagged for a closer look

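In each member and group of 4 to 6 libraries with at least 5 TPM in its highest library, the most extreme library was compared with the rest by Dixon's test for a gap. The check used log2(TPM + 1). Of 44 such groups 3 had a library far from the others, and chance gives about 1 in 20 where values are not tied at 0. IGFBP5 had 8.37 TPM in double-negative pool 6, against 3.15 to 4.61 TPM in the other double-negative libraries. CYP26B1 had 4.63 TPM in double-negative pool 5, against 13.8 to 18.6 TPM in the others. The unnamed ENSDARG00000103068 had 7.97 TPM in mCherry-positive pool 9 at 7 dpi and was listed at 0 in the other 3 libraries of that group. With those tied at 0 the gap is the whole range by construction, so that rate does not apply to it. The citrine-positive libraries, with 3 in the group, were not covered by this check. IGFBP5 kept its call between double-negative and mCherry-positive cells without double-negative pool 6.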

How the results depend on the processing

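The number of genes that met the rule moved with its settings: 44 and 23 with pseudocounts of 0.1 and 5, 77 and 14 with ratios of at least 3 and 8, 84 after median-of-ratios scaling, 141 after rescaling without the 12 IDs that held over 5% of a library, 37 with group medians (29 of them among the 42), and 35 to 88 without 1 library. The highest came without citrine-positive pool 7 (88, of which 38 were among the 42). The 14 members with the excess in citrine-positive pool 9 were 14 or 15 under the 4 alternatives tried. For the list genes between citrine-positive and double-negative cells, 60 higher became 31 with a pseudocount of 0.1, 134 and 104 after the 2 scalings, 2 in pools 2 to 8, which hold 1 citrine-positive library, assumed to vary like the other groups, and 17 to 64 without 1 library. The 18 lower became 10 in pools 2 to 8 and 13 to 20 without 1 library. With these groups fitted alone, 74 were higher and 20 lower. With the replicate block added to that fit 50 were higher and 13 lower, and 7 of 21 named calls were lost as given above, with no other change of call. A pseudocount of 0.1 also ended the calls of ANGPT1, CRABP1, fbln5, FST and the second IDs of SFRP1 and PRICKLE1, and pools 2 to 8 left 7 of 17. Between double-negative and mCherry-positive cells, 17 members became 13 with a pseudocount of 5, 13 in pools 2 to 8 (where the log2 difference of ADAMTS15 was 1.90) and 14 to 21 without 1 library. Pool numbers there correlated at 0.05, 0.15, 0.02 and 0.37 in pools 5, 6, 7 and 9 and were not taken as pairs. The highest correlation with another pool number was 0.06, 0.16, 0.11 and -0.05. With these groups fitted alone there were 17 members without the replicate block and 13 with it. Between 7 dpi and uninjured mCherry-positive cells, 0 higher became 2 with a pseudocount of 0.1 (BNC2 and elnb), 1 with a filter at 5 TPM, 1 after each scaling (BNC2), and 0 to 1 without 1 library. Over all tested IDs, calls in citrine-positive against double-negative cells ranged from 71 to 892 higher and 701 to 1845 lower, in double-negative against mCherry-positive cells from 818 to 1801 higher and 269 to 969 lower, and in 7 dpi against uninjured mCherry-positive cells from 4 to 162 higher and 0 to 101 lower, the lowest with the compared groups fitted alone. The causes were not tested. The sizes of named differences moved with the pseudocount: between citrine-positive and double-negative cells, those of the 15 higher genes were 1.21 to 3.34, against 1.23 to 5.59 with 0.1 and 0.46 to 1.87 with 5. No named value changed direction. Depth could not be weighed, since TPM hold no counts.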
